A study of Rattus norvegicus with 6 samples.

Results

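The 10 chemokine ligand genes Cxcl1, Cxcl2, Cxcl9, Cxcl10, Cxcl11, Cxcl16, Ccl2, Ccl5, Ccl20 and Cx3cl1 were examined in INS-1 rat insulinoma cells with and without lentiviral α-SMA. They were taken by gene symbol from a table of raw counts per transcript, and the rows that share a gene identifier were added up. All 10 were present, among 21553 named genes in all. INS-1 is an insulin-secreting cell line. The 3 libraries named INS-SMA came from INS-1 cells made to express α-SMA (alpha smooth muscle actin, the product of ACTA2) by lentivirus. The 3 libraries named INS-MOCK came from INS-1 cells with the genotype given as wild type, and the labels do not say whether these cells received a lentivirus. Both groups share the cell line, its medium and a passage range of 7 to 15. The series calls the 3 libraries of a group biological replicates. The sources used here do not say whether the INS-SMA cells were 1 clone or 1 transduction, which would limit what the spread between libraries covers.

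Chemokines are small secreted proteins that attract leukocytes through G protein-coupled receptors, and the spacing of their first cysteines divides them into CXC, CC and CX3C families. Many are silent in resting cells and are switched on by the transcription factors NF-kappaB, activated by cytokines such as TNF and IL-1, and by STAT and IRF factors, activated by interferons. In the pancreatic islet, chemokines made by beta cells are known as part of the inflammation that accompanies type 1 diabetes.

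Library totals were 34471794 to 37466920 counts in INS-MOCK and 24719503 to 39608609 in INS-SMA, of which 32.7% to 36.7% lay in rows that name no gene. The human ACTA2 sequence had 103 to 167 counts in the INS-MOCK libraries and 941093 to 1141322 in the INS-SMA libraries; rat Acta2 was at 0 throughout INS-MOCK and at 13 to 22 in INS-SMA. All 8 beta cell markers examined were detected in every library, and Ins1, an insulin gene, was at 22960 ± 895 CPM in INS-MOCK and 1505 ± 182 in INS-SMA (SD, n = 3). By edgeR 6 of the 8 were lower in INS-SMA, as were 27.0% of all tested genes. The other 2, Mafa and Slc2a2, did not pass. The log2 fold changes ran from -4.29 (Ins2) to -0.30 (Slc2a2). CPM are counts scaled to library size with TMM factors, a normalisation that sets most genes level between libraries. In cultures measured in bulk, fewer cells making a transcript and less transcript per cell cannot be told apart. Of 10 leukocyte markers, 5 were among the named genes. Their summed level was 0.743 to 2.51 CPM in the INS-MOCK libraries and 3.49 to 4.27 in the INS-SMA libraries. Ptprc (CD45), the pan-leukocyte phosphatase, was at 0 throughout INS-MOCK and had 31, 34 and 29 counts in INS-SMA, whereas Cd14, a monocyte marker, was at 0 in 5 of the 6 libraries and at 2 counts in INS-SMA replicate 3. Adgre1 (F4/80), a macrophage marker, had 0, 7 and 0 counts against 21, 21 and 20, with no overlap. It passed the count filter through INS-SMA alone. It was not called (edgeR adjusted p = 0.0665), and this p-value is not taken as evidence either way. Csf1r and Cd68 overlapped between groups, at 0.925 and 0.568 CPM in INS-MOCK and 1.09 and 0.315 in INS-SMA. The summed levels of 4 endothelial markers (1.45 to 2.82 CPM in INS-MOCK and 1.26 to 2.11 in INS-SMA) overlapped, with Vwf at 1.84 and 0.865 CPM and Tek at 0, 3 and 0 against 4, 18 and 32 counts. The summed level of 5 fibroblast markers was 13.7 to 16.9 CPM in INS-MOCK and 11.3 to 12.9 in INS-SMA, and most of it was Pdgfra, which fell from 15.3 ± 1.77 to 8.24 ± 0.17 CPM. The collagen gene Col3a1 of the same list rose, from 3, 0 and 2 counts to 46, 80 and 54. It passed the count filter through INS-SMA alone and so had to differ, and no p-value is given for it. The other members, below the count filter, had 4 and 42 counts in all for Col1a1, 0 and 17 for Dcn, and 0 and 4 for Col1a2, in INS-MOCK and INS-SMA. The 2 duct and acinar markers summed to 6.37 to 7.13 and 3.62 to 4.55 CPM, nearly all of it Krt7. The part of these cell types in the results was not tested.

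Transcripts of the chemokine ligands were higher in INS-SMA for every gene examined. In all 10 genes each INS-SMA library lay above each INS-MOCK library, a pattern that 25.3% of the named genes showed. Cxcl1, Cxcl2, Cxcl9, Ccl2, Ccl5 and Ccl20 had 0 counts in all 3 INS-MOCK libraries and counts in all 3 INS-SMA libraries, as did 4.11% of named genes. Cxcl10, Cxcl11, Cxcl16 and Cx3cl1 were detected in both groups. Cxcl9 and Ccl2 were below the count filter, and 8 were tested. Cxcl10, Cxcl11, Cxcl16 and Cx3cl1 were called higher by edgeR at an adjusted p of 0.05. Of these, Cx3cl1 was too low in INS-MOCK to pass the filter without INS-SMA libraries, so its p-value is not taken as support. Of the 13363 genes tested, 55.1% were called in either direction, 28.1% higher and 27.0% lower. Cxcl1, Cxcl2, Ccl5 and Ccl20 were called higher too, but passed the filter through INS-SMA alone and so had to differ. They are described by their counts and lower bounds, with no p-value as support. With no count filter, and with DESeq2, all 10 were called higher and 0 lower. Of all genes in those fits, 18.3% and 25.2% were called higher. The calls of genes with 0 counts in INS-MOCK are again no support. The table gives no transcript lengths, so levels are compared between libraries and not between genes.

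**Figure D1:**
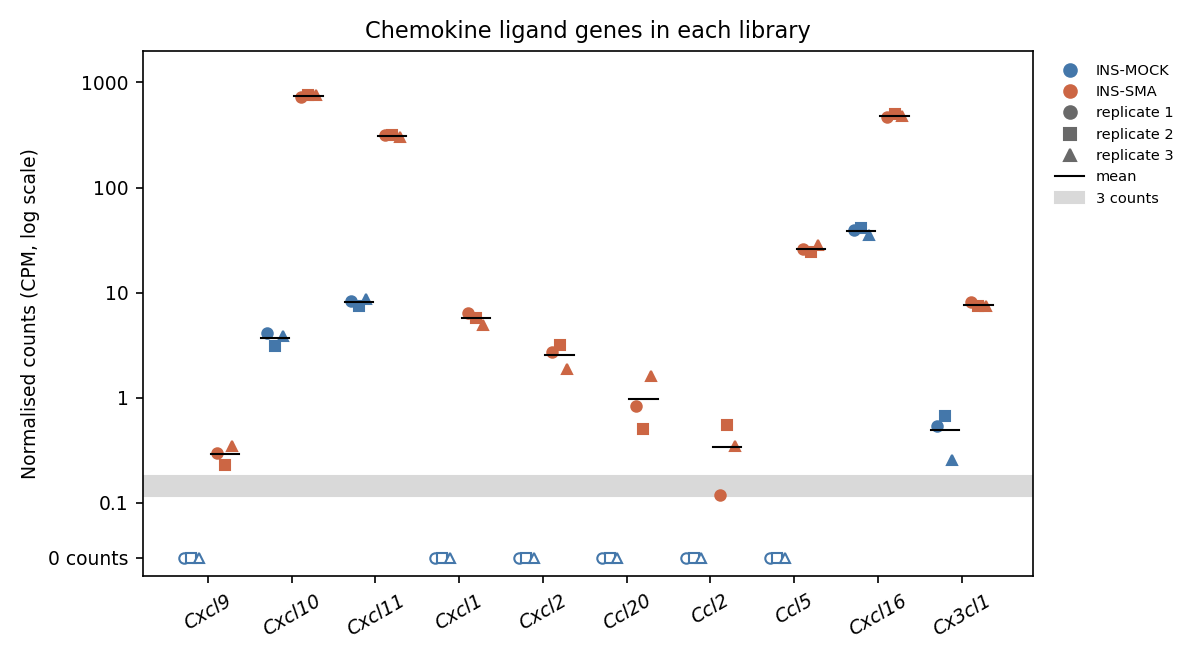
Normalised counts (CPM, log scale) of each chemokine ligand gene in each library, with 3 INS-MOCK libraries in blue and 3 INS-SMA libraries in orange, marker shape giving the replicate and lines the group means. Open symbols on the lowest line are libraries with 0 counts, and the grey band is the level of 3 counts (0.117 to 0.180 CPM). Only the first INS-SMA library of Ccl2 lies in or below that band among the INS-SMA points.

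Cxcl9, Cxcl10 and Cxcl11 encode the interferon-inducible ligands of the receptor CXCR3, which attract activated T cells and NK cells. They lie side by side on chromosome 14 (Cxcl11 at 17195014 to 17198291, Cxcl10 at 17210733 to 17212930 and Cxcl9 at 17228856 to 17234712, all on the plus strand in the coordinates of the deposited table). The 250 bases before their transcription starts are printed because this cluster holds Cxcl10, which had the largest fold of the 4 genes with counts in INS-MOCK. They are RefSeq sequences in build GRCr8, at chr14:15988816-15989065 for Cxcl10, chr14:15973478-15973727 for Cxcl11 and chr14:16006916-16007165 for Cxcl9, all plus strand. Capitals mark matches on either strand to the NF-kappaB motif (GGG, any 5 bases, CC) or to the interferon-stimulated response element (ISRE; GAAA, any 2 bases, GAAA).
Cxcl10: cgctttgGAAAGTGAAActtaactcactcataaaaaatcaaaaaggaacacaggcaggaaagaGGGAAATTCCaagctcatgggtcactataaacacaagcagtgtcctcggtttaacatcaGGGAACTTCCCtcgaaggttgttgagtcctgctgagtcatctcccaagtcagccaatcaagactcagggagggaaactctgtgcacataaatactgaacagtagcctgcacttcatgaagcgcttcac
Cxcl11: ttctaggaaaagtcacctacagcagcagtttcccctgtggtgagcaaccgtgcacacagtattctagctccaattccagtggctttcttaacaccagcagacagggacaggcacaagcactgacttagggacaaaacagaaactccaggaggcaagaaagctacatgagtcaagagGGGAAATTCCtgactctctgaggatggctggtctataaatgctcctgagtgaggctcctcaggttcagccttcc
Cxcl9: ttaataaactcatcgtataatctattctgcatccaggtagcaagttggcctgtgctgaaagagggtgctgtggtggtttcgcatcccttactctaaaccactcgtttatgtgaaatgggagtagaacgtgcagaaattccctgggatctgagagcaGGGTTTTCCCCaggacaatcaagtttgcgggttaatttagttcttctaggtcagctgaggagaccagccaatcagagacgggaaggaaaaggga

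Cxcl10 had 99, 69 and 90 counts in INS-MOCK replicates 1, 2 and 3, and 12103, 16509 and 19479 in INS-SMA replicates 1, 2 and 3. In normalised terms these were 4.09, 3.09 and 3.85 CPM against 727, 758 and 758 CPM. The INS-SMA libraries agreed within a factor of 1.04 and lay far above the INS-MOCK libraries. The ratio of the group means was 203, and edgeR put it at 7.66 on the log2 scale (SE 0.13, adjusted p = 2.99e-06).

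Cxcl11 had 202, 168 and 202 counts in the INS-MOCK libraries, or 8.34, 7.53 and 8.63 CPM. In the INS-SMA libraries it had 5269, 6833 and 7841 counts, or 317, 314 and 305 CPM. The groups were again far apart, and neither had a library that stood out. The mean went from 8.17 ± 0.57 to 312 ± 6.04 CPM (SD, n = 3), a ratio of 38.2 (log2 5.25, SE 0.07, edgeR adjusted p = 2.01e-06).

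Cxcl10 and Cxcl11 did not change by the same factor. INS-MOCK libraries held 0.490, 0.411 and 0.446 Cxcl10 counts per Cxcl11 count, and INS-SMA libraries 2.30, 2.42 and 2.48. This ratio does not depend on library size or scaling. Its mean was 5.35 times as high in INS-SMA as in INS-MOCK, 2.40 ± 0.095 against 0.449 ± 0.040 (SD, n = 3), and the groups did not overlap. The exact two-sided permutation p on the log ratio was 0.1, the smallest that 3 against 3 libraries can give, and 0.2 after adjustment over the 2 within-library ratios compared. For Cxcl9, the other gene of the cluster, few reads were counted. It had 0 counts in the 3 INS-MOCK libraries and 5, 5 and 9 in the INS-SMA libraries, or 0.300, 0.229 and 0.350 CPM, just above the level of 3 counts. It was at least 2.28-fold higher, taking 3 counts per INS-MOCK library as the floor. With no count filter it passed edgeR's test (adjusted p = 0.0169), and with DESeq2 the adjusted p was 0.0419. With 0 counts in INS-MOCK the direction of Cxcl9 was fixed in advance, so neither p-value is taken as support.

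**Figure D2:**
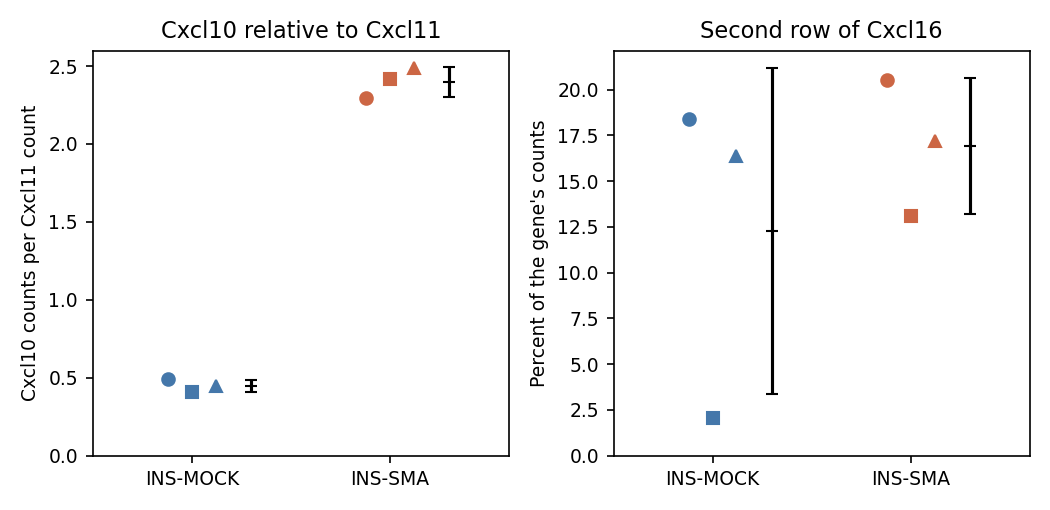
Left, Cxcl10 counts per Cxcl11 count in each library. Right, the percentage of Cxcl16 counts that lay in the smaller of its 2 transcript rows. Points are libraries, marker shape gives the replicate, and bars are the mean ± SD of 3 libraries. The Cxcl10 to Cxcl11 ratio separates the groups (0.411 to 0.490 against 2.30 to 2.48), while the Cxcl16 percentages overlap.

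Cxcl1 and Cxcl2 encode ligands of CXCR2 that attract neutrophils, and Ccl20 encodes the ligand of CCR6, which is carried by dendritic cells and Th17 cells. All are textbook NF-kappaB target genes. Cxcl1 (chromosome 14, 18743685 to 18745457, minus strand) and Cxcl2 (18731378 to 18733391, minus strand) are neighbours, 10294 bases apart in the deposited coordinates. The 250 bases before their starts are shown for comparison with the cluster above, from RefSeq in GRCr8, at chr14:17479322-17479571 for Cxcl1 and chr14:17467256-17467505 for Cxcl2, minus strand, with capitals as before.
Cxcl1: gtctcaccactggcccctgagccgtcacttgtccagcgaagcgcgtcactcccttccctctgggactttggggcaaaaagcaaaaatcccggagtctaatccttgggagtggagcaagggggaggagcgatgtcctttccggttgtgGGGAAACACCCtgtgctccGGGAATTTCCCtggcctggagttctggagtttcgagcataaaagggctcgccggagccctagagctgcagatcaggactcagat
Cxcl2: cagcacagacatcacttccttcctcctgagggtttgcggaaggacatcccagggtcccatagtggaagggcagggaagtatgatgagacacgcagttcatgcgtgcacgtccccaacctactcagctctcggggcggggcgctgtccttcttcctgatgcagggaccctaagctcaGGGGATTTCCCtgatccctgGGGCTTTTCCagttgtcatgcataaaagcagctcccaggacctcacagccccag

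Cxcl1 had 0 counts in the INS-MOCK libraries and 107, 124 and 127 in the INS-SMA libraries, or 6.43, 5.69 and 4.94 CPM. The mean of 5.69 ± 0.75 CPM (SD, n = 3) was at least 44.1-fold above the floor of 3 counts per INS-MOCK library. Cxcl2 also had 0 counts in INS-MOCK, and 45, 69 and 48 in INS-SMA, or 2.70, 3.17 and 1.87 CPM. It was at least 20.01-fold higher. The INS-SMA libraries of Cxcl1 differed by a factor of 1.30 and those of Cxcl2 by 1.70, against 1.04 for Cxcl10. Cxcl1 and Cxcl2 are close paralogs, and how the counting split shared reads between them is not known.

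Ccl20 (chromosome 9, 88918433 to 88921001, plus strand) was the least even of the tested genes. It had 0 counts in INS-MOCK, and 14, 11 and 41 in INS-SMA, or 0.841, 0.505 and 1.59 CPM. INS-SMA replicate 3 was 3.16 times as high as replicate 2, and each lay above the level of 3 counts. Ccl20 was at least 7.61-fold higher on average.

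Ccl2 and Ccl5 encode CC chemokines, of which CCL2 (MCP-1) attracts monocytes through CCR2 and CCL5 (RANTES) attracts T cells and monocytes. Both genes are on chromosome 10, Ccl2 at 69412017 to 69413870 on the plus strand and Ccl5 at 70739800 to 70744315 on the minus strand, 1325930 bases apart. Ccl5 had 0 counts in the INS-MOCK libraries and 430, 530 and 738 in the INS-SMA libraries, or 25.8, 24.3 and 28.7 CPM. The 3 INS-SMA values were close to each other, with a mean of 26.3 ± 2.23 CPM (SD, n = 3). This was at least 204-fold higher, the highest lower bound of the 6 genes without counts in INS-MOCK. Ccl2 was near the limit of detection. It had 0 counts in INS-MOCK and only 2, 12 and 9 in INS-SMA, or 0.120, 0.551 and 0.350 CPM, and INS-SMA replicate 1 was below the level of 3 counts. Its mean was at least 2.64-fold above the floor. With no count filter Ccl2 passed edgeR's test at an adjusted p of 0.0307, and with DESeq2 at 0.0356. Its direction was likewise fixed in advance by the 0 counts in INS-MOCK, so neither p-value is taken as support.

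Cxcl16 and Cx3cl1 encode the 2 chemokines that are made as transmembrane proteins and can be released by proteases; CXCL16 binds CXCR6, and CX3CL1 (fractalkine) binds CX3CR1. Cxcl16 (chromosome 10, 57060007 to 57064600, minus strand) was detected in every INS-MOCK library. It had 963, 917 and 825 counts there, or 39.8, 41.1 and 35.3 CPM, and 7730, 10869 and 12304 counts in INS-SMA, or 464, 499 and 479 CPM. The mean went from 38.7 ± 3.06 to 481 ± 17.2 CPM (SD, n = 3), a ratio of 12.4 (log2 3.63, SE 0.07, edgeR adjusted p = 4.09e-06). This gene alone among the 10 was spread over 2 transcript rows. The smaller row had 177, 19 and 135 counts in INS-MOCK and 1586, 1423 and 2115 in INS-SMA, and the larger had 786, 898 and 690 against 6144, 9446 and 10189, so both rows were higher in every INS-SMA library. The smaller row held 18.4%, 2.07% and 16.4% of the gene's counts in INS-MOCK and 20.5%, 13.1% and 17.2% in INS-SMA. These shares overlapped (exact two-sided permutation p = 0.6, adjusted p = 0.6), and INS-MOCK replicate 2 was the low one.

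Cx3cl1 (chromosome 19, 10644244 to 10653800, minus strand) had 13, 15 and 6 counts in INS-MOCK, or 0.537, 0.672 and 0.256 CPM. In INS-SMA it had 137, 161 and 190 counts, or 8.23, 7.39 and 7.39 CPM. INS-MOCK replicate 3 was the lowest of its group, and the groups lay well apart. The mean ratio was 15.7 and the log2 fold change 3.96 (SE 0.40, adjusted p = 4.62e-04 by edgeR's quasi-likelihood test). The INS-MOCK libraries held 34 counts of the gene in all, and without INS-SMA libraries it would not have passed the count filter. Its p-value is therefore not taken as support.

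**Figure D3:**
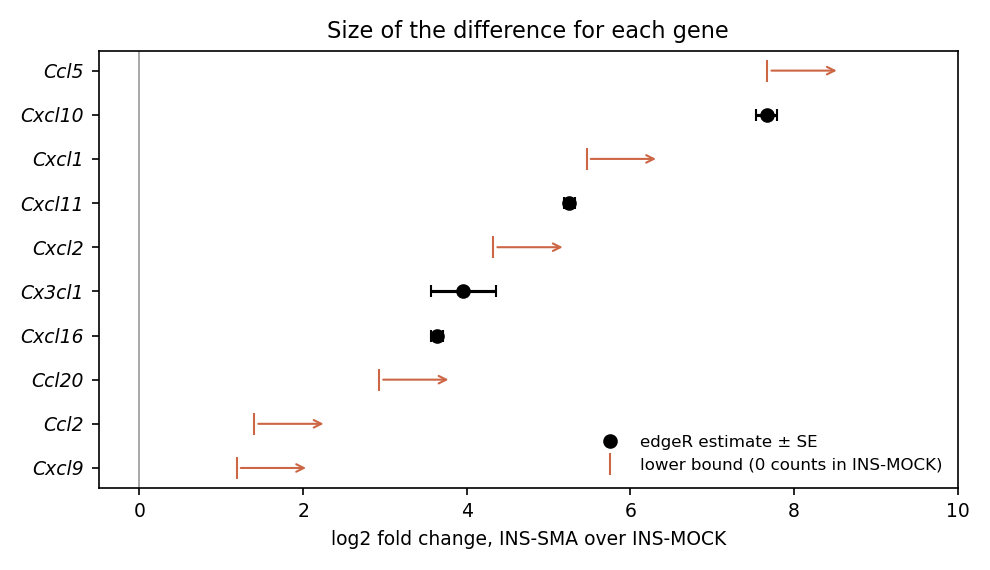
Log2 fold change of each chemokine ligand gene, INS-SMA over INS-MOCK. Black points are edgeR estimates with their standard errors for the 4 genes with counts in both groups, and orange ticks with arrows are lower bounds for the 6 genes with 0 counts in INS-MOCK, against 3 counts per library. Cxcl10 (7.66) is the highest of the estimates and Cxcl16 (3.63) the lowest; Cxcl9 has the lowest bound.

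Among the 4 genes measured in both groups, the folds of Cx3cl1 and Cxcl16 (log2 3.96 ± 0.40 and 3.63 ± 0.07, SE) lay within the error of Cx3cl1, and those of Cxcl11 and Cxcl10 were higher. These differences between genes were not tested, apart from the within-library ratio of Cxcl10 to Cxcl11. When any 1 library was left out, the log2 fold change stayed between 7.55 and 7.75 for Cxcl10, 5.20 and 5.30 for Cxcl11, 3.57 and 3.68 for Cxcl16, and 3.66 and 4.25 for Cx3cl1. INS-MOCK replicate 1 had more transcripts of some interferon-response genes than the other INS-MOCK libraries, for example 1670 counts of Stat2 against 839 and 888. Without it the log2 fold change of Cxcl10 was 7.75 and that of Cxcl11 was 5.27.

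RefSeq promoter windows were found for 8 of the 10 genes (not Ccl2 and Ccl5) and were searched for 4 motifs on both strands, 250 bases before to 50 after the start. The NF-kappaB motif (GGG, any 5 bases, CC) matched in 6 of 8 windows (Cxcl1, Cxcl2, Cxcl9, Cxcl10, Cxcl11 and Ccl20), where 47.3% of all 33469 windows hold it. Of the 21851 windows of protein-coding genes, 52.8% hold the motif. After overlapping matches were merged, Cxcl1, Cxcl2, Cxcl10 and Ccl20 had 2 stretches each, and Cxcl9 and Cxcl11 had 1 each. The stretch nearest to the start began 84 bases before it in Cxcl1, 54 in Cxcl2, 94 in Cxcl9, 128 in Cxcl10, 74 in Cxcl11 and 91 in Ccl20. The ISRE (GAAA, any 2 bases, GAAA) matched in Cxcl10 alone, at -243 to -234 from the start, against 3.92% of all windows. The AP-1 motif TGANTCA matched in Cxcl10 and Cxcl11 (7.33% of all windows), beginning at -96 and -85. The gamma-activated site TTCNNNGAA matched in Cxcl11, and in Cxcl9 after the start (8.87% of all windows). None of the 4 motifs matched in the windows of Cxcl16 and Cx3cl1. A match is a description of letters, not of binding.

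Cxcl10 and Cxcl11 held the same 10 bases in an NF-kappaB match, GGGAAATTCC, and Cxcl1 held its reverse complement, GGAATTTCCC. This sequence was looked at after the matches were seen. In the 250 bases before the start it was present on either strand in 30 of 33469 RefSeq windows (0.0896%), among them these 3 of the 8 chemokine windows.

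**Figure D4:**
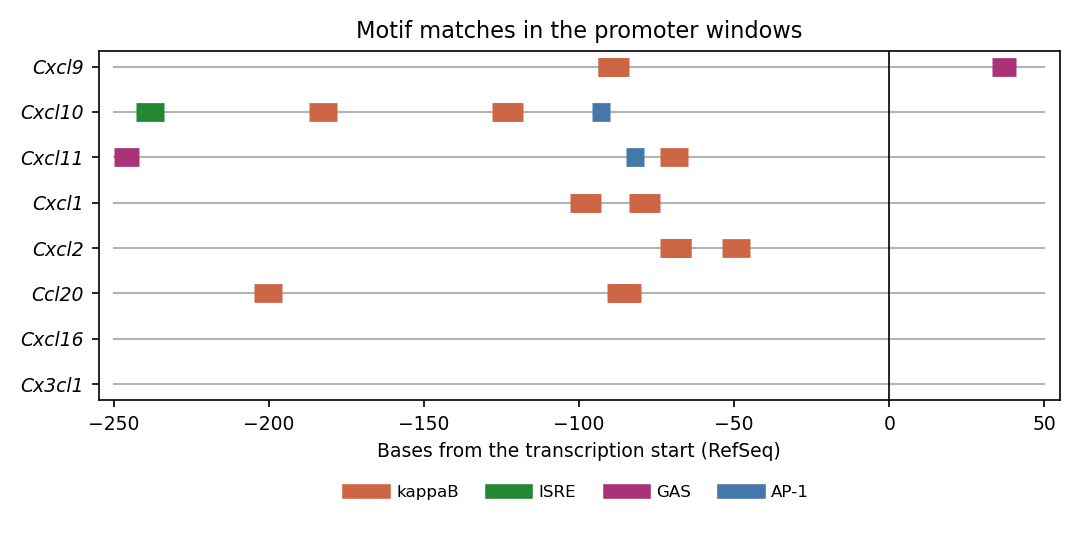
Positions of motif matches in the promoter windows of 8 chemokine ligand genes, in bases from the RefSeq transcription start (vertical line). Colours give the motif, and overlapping matches are drawn over each other. Of these genes, 6 have NF-kappaB matches, all before the start, and Cxcl16 and Cx3cl1 have no match.

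Genes around the chemokine loci were called in both directions, as were genes in general (28.1% of all tested genes higher and 27.0% lower). Within 250000 bases of the Cxcl9, Cxcl10 and Cxcl11 cluster lay 12 other named genes, of which 7 were tested, 3 higher and 3 lower. Stbd1 had a log2 fold change of 2.48, Ccdc158 of 2.31 and Sdad1 of 0.57, while Naaa (-2.37), Uso1 (-0.64) and Scarb2 (-0.27) were lower. Ccdc158 lost its edgeR call without INS-SMA replicate 1 (adjusted p = 0.0503). Art3, on the opposite strand, overlaps Cxcl10 and Cxcl11. It was below the count filter, at 0.0992 ± 0.138 CPM in INS-MOCK and 0.0918 ± 0.0407 in INS-SMA (SD, n = 3). Around Cxcl1 and Cxcl2 lay 5 others, of which 2 were tested and 0 were called by edgeR, with 0 at an unadjusted p under 0.05 and 0 by DESeq2. Heatr9, 4058 bases from Ccl5, was higher, from 0.057 to 1.18 CPM (log2 fold change 4.22). Heatr9 and Ccdc158 passed the filter through INS-SMA alone and so had to differ. Med11, 604 bases from Cxcl16, was lower (-0.92). In the same window, 6 genes were tested around Ccl5 (3 higher, 1 lower), 19 around Cxcl16 (4 higher, 11 lower), 12 around Cx3cl1 (2 higher, 4 lower) and 1 around Ccl20, which was not called. The 4 higher around Cxcl16 include Chrne (0.043 CPM in INS-MOCK and 1.35 in INS-SMA), which passed the filter through INS-SMA alone. The 4 lower around Cx3cl1 include Arl2bp (38.4 and 0.228 CPM), which needed INS-MOCK libraries to pass it. Calls of such genes are no support. Whether the shares of called neighbours differ from those of all genes was not tested.

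Of 27 other chemokine ligand symbols, 12 were among the named genes and 10 of these were below the count filter. Cxcl12, the ligand of CXCR4, and Ccl27, an epithelial T cell attractant, were tested. Neither passed: Cxcl12 was at 1.93 ± 0.40 CPM in INS-MOCK and 2.54 ± 0.28 in INS-SMA (log2 fold change 0.40, edgeR adjusted p = 0.224), and its groups overlapped. By edgeR 0 were called, with 0 at an unadjusted p under 0.05, and by DESeq2 1 was called, Ccl17. Ccl17, a ligand of CCR4 that lies 23573 bases from Cx3cl1, had 1, 0 and 0 counts in INS-MOCK and 10, 9 and 10 in INS-SMA, a ratio of 31.6 (exact 95% binomial interval 5.24 to 1291, counting error only). Cxcl3, a close relative of Cxcl1 and Cxcl2, had 9 counts in INS-SMA replicate 2 and 0 in every other library.

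Of 23 chemokine receptor symbols, 13 were named and 4 tested. Ccrl2, an atypical receptor that binds chemerin and does not signal like a classical receptor, rose from 0.652 ± 0.371 to 4.58 ± 1.11 CPM (log2 ratio 2.80, SE 0.47, edgeR adjusted p = 0.00393). It had 12, 24 and 9 counts in INS-MOCK and 96, 78 and 113 in INS-SMA, with no overlap. Without INS-SMA libraries Ccrl2 would not have passed the count filter, so its p-value is not taken as support. Receptors of the chemokine ligands themselves had few counts. Ackr3, an atypical receptor of CXCL11 and CXCL12, had 4, 6 and 0 counts in INS-MOCK and 31, 28 and 10 in INS-SMA, with no overlap. It was below the count filter, and DESeq2 called it higher (adjusted p = 0.0315), while edgeR with no filter did not (0.0847). Ccr3, a receptor of CCL5, had 0 counts in INS-MOCK and 11, 6 and 0 in INS-SMA. Cxcr2, the receptor of CXCL1 and CXCL2, had 0 counts in INS-MOCK and 2, 0 and 2 in INS-SMA. Cxcr6, the receptor of CXCL16, had 4 counts in INS-SMA replicate 2 and 0 elsewhere, as did Ccr1, a receptor of CCL5. Cx3cr1, the receptor of CX3CL1, had 2 counts in INS-MOCK replicate 2 and 0 elsewhere. Cxcr3, Ccr2 and Ccr6 were not among the named genes. Ccr10 had 12, 5 and 5 counts in INS-MOCK and 10, 17 and 23 in INS-SMA. It was just outside the threshold (log2 fold change 1.27, edgeR adjusted p = 0.0504), and passed without INS-MOCK replicate 1 (0.0172). The alternatives gave 0.0172 to 0.202. Without INS-SMA libraries Ccr10 would not have passed the count filter either, so these p-values are not taken as support. Cxcr4 was at 1.89 ± 0.59 and 1.62 ± 0.37 CPM (log2 fold change -0.22, edgeR adjusted p = 0.602), and its direction turned to 0.063 without INS-MOCK replicate 3.

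Of 8 genes for proteases that release or trim chemokines and for their regulators, 6 were tested, 4 higher and 0 lower, where 28.1% and 27.0% of all tested genes were (0 lower at an unadjusted p under 0.05 and by DESeq2). Rhbdf2, which encodes an iRhom that brings the sheddase ADAM17 to the cell surface, rose from 20.5 ± 1.94 to 261 ± 7.78 CPM (log2 3.67, SE 0.08, edgeR adjusted p = 4.62e-06). Rhbdf2 gave 9.66 on the log2 scale in its most abundant transcript row alone (edgeR adjusted p = 0.00596), a size that depends on how reads were split between rows. Its relative Rhbdf1 rose by 1.69 on the log2 scale. Adam17, the inducible sheddase of CX3CL1, rose from 61.2 ± 0.53 to 81.6 ± 1.66 CPM (log2 0.42). In their most abundant rows neither Rhbdf1 (0.86, adjusted p = 0.234) nor Adam17 (0.17, 0.672) passed. Mmp9 had 3, 0 and 0 counts in INS-MOCK and 8, 10 and 15 in INS-SMA, a ratio of 11.99 (95% binomial interval 3.76 to 61.1). It is among the 4 called higher, but passed the filter through INS-SMA alone and so had to differ. Its edgeR adjusted p, no support for that reason, was 0.0279, and 0.0662 to 0.0773 without any 1 library other than INS-MOCK replicate 1. The Mmp9 call was also lost with DESeq2 (adjusted p = 0.059), with no filter (0.0577) and as transcript rows (0.0706). Adam10, the constitutive sheddase of CX3CL1 and CXCL16, was at 20.3 ± 8.21 and 11.9 ± 3.70 CPM and did not pass (log2 fold change -0.77, adjusted p = 0.134). Dpp4, which trims CXCL10, was at 4.90 ± 0.17 and 4.21 ± 0.36 CPM (-0.22, adjusted p = 0.319).

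A further list held 25 genes for inducers of chemokine transcription and for their regulators, inhibitors included. Of these, 21 were tested, 13 higher and 0 lower, where 28.1% and 27.0% of all tested genes were. The median log2 fold change of the 21 was 2.01, and that of all tested genes was 0.03. None was lower at an unadjusted p under 0.05 or by DESeq2, and 1, Relb or Irf9, was lower without INS-MOCK replicate 3 or replicate 2. Those with the smallest adjusted p were Nfkbia, an NF-kappaB inhibitor and target (log2 fold change 2.43), Jun, a subunit of AP-1 (2.58), the interferon regulatory factor gene Irf1 (3.50), the NF-kappaB subunit gene Rela (0.73), the kinase gene Chuk (0.68) and Stat2 (3.83). Chuk did not pass in its most abundant row (0.27, edgeR adjusted p = 0.68). Genes for cytokines that act upstream of chemokines were picked out after their values were seen. Ifnb1, interferon beta, had 0 counts in INS-MOCK and 156, 167 and 258 in INS-SMA, at least 70.0-fold higher. Tnf, tumour necrosis factor, had 0 in INS-MOCK and 100, 119 and 130 in INS-SMA, at least 42.7-fold higher. Both are among the 13 called higher, but passed the filter through INS-SMA alone and so had to differ. Nfkb2, also among the 13, had 131, 107 and 9 counts in INS-MOCK. Irf3, which was not called and whose log2 fold change of 2.01 is the median, had 23, 27 and 9. Neither would have passed the filter without INS-SMA libraries, so the count and the median rest in part on such genes. Several members were uneven between libraries of 1 group. Nfkb1, for example, had 0, 0 and 14 counts in INS-MOCK and 15, 0 and 733 in INS-SMA, and Irf9 had 507, 3 and 181 in INS-MOCK. Among the chemokine ligand genes, the INS-SMA libraries of 1 gene differed by at most a factor of 1.70, apart from Ccl20 (3.16) and Ccl2 (4.58).

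**Figure D5:**
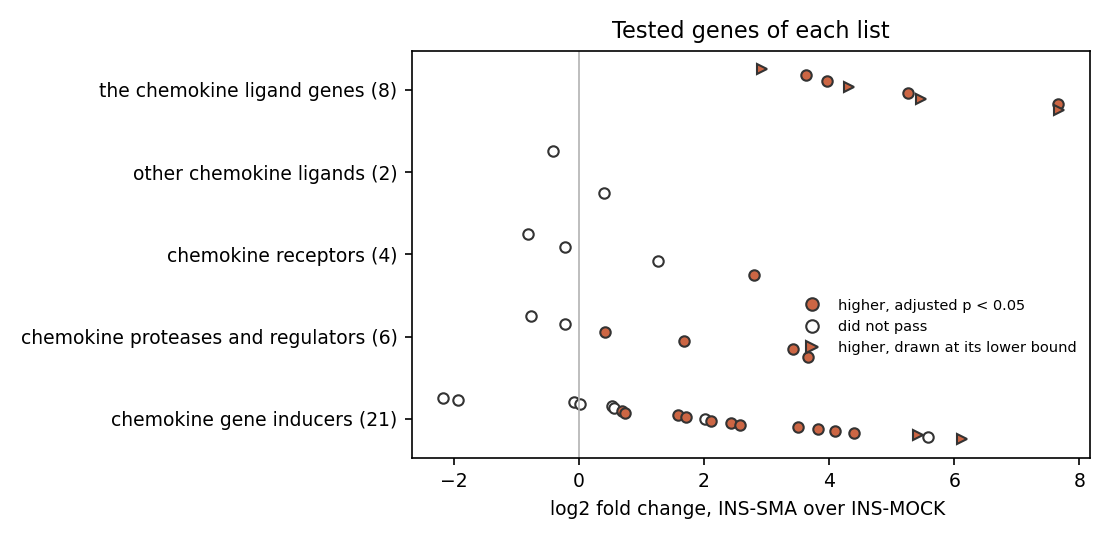
Log2 fold change, INS-SMA over INS-MOCK, of each tested gene in the chemokine ligand genes and 4 related lists, with the number tested in brackets. Filled symbols passed an edgeR adjusted p of 0.05 and open symbols did not, and triangles are genes with 0 counts in INS-MOCK drawn at their lower bound. All 8 tested chemokine ligand genes lie to the right of 0, and the 4 related lists hold genes on both sides of it.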

How the data were processed

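The deposited table holds raw counts for each transcript row and library, per the file headers. HISAT2, HISAT and DESeq2 and the builds hg19 and rn6 are named, without roles, per the submitters' processing notes. The counting program, strand setting and annotation were not stated in these sources. Rows that name no gene (32.7% to 36.7% of counts) were left out, which lowers the value of any gene with reads there. Counts were summed per gene identifier, filtered with filterByExpr, scaled with TMM and compared with edgeR 4.0.16 (quasi-likelihood F-test, group as the only term, Benjamini-Hochberg over 13363 genes, threshold 0.05). The SE is the log2 fold change divided by the square root of F. DESeq2 1.42.0 was an alternative. Where a group had no counts, the floor was 3 counts per library (0.117 to 0.180 CPM). Floors and intervals cover counting error only. The fit was tested on simulated data. No library repeated another: chi-square over its degrees of freedom was 46.8 to 61.0 within groups. The labels call the libraries biological replicates and name no separate cultures, so p-values measure the spread between these libraries.

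The members, lists and tests were chosen with earlier results of these data known. Named were all 10 members and, from each other list, at most the 6 genes with the smallest adjusted p that passed, the genes of the marker lists and the 5 genes most like Cxcl10. Other names, the 250000-base neighbourhood and the ratio of Cxcl10 to Cxcl11 were chosen after values were seen. Promoters are RefSeq sequences in GRCr8, not the build of the table's coordinates.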

Additional observations from a re-analysis of the deposited data

How the results depend on the processing

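Over 15 alternatives 7 to 10 of the chemokine ligand genes were called higher and 0 lower. Of all genes, 17.9% (transcript rows) to 31.4% (strict filter) were called higher in these alternatives. Cxcl1, Cxcl2, Cxcl9, Ccl2, Ccl5 and Ccl20 had 0 counts in INS-MOCK, so their direction was fixed in advance. Their calls and single-gene values are no support. Of 119 single-gene values for the 8 tested genes, 118 kept their direction and their side of the threshold. The exception was Ccl20 with the replicate number as a replicate block (log2 fold change 7.44, adjusted p = 0.0649), where 7 genes were called higher, and 3138 genes in all were higher and 3156 lower against 3753 and 3606. The numbers only name the libraries: deviations of same-numbered libraries did not correlate (-0.0155, -0.00889 and -0.00714), and no library correlated best with its own number. With that block Ccdc158 (adjusted p = 0.0757), Naaa (0.0518), Ptprc (0.0526) and Mmp9 (0.0839) also missed the threshold, and 1 protease gene, Adam10, was lower. As transcript rows 1 protease gene was higher. Of the other chemokine ligands 1 was higher with DESeq2 and with no low-count filter, and 0 to 1 without any 1 library. Of the receptors 2 were higher with DESeq2, with no normalization factors and with unnamed rows counted in library sizes, and 1 to 2 without any 1 library. Of the inducers and their regulators 0 to 1 were lower without any 1 library. The log2 fold change of Cxcr4 was -0.39 to 0.063 without any 1 library, and turned to 0.063 without INS-MOCK replicate 3. The causes were not tested, beyond the greater number of genes tested without a filter. The Cxcl10 to Cxcl11 ratio of ratios was 5.13 to 5.60 without any 1 library, an alternative chosen after seeing the data. Without normalization factors the median over all tested genes moved to 0.13 (log2), against 0.03. The strict filter left 7 of the ligand genes to test. The shallowest library, INS-SMA replicate 1, had a floor of 0.180 CPM, near the levels of Cxcl9 and Ccl2.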

Other observations

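The genes whose log2 CPM over the 6 libraries was most like that of Cxcl10, by Pearson correlation, were Rsg1, Fyn, Cxcl11, Rhbdf2 and Zbtb24, with r of 0.9998 to 0.9999. The libraries fall in 2 groups that differ in most genes, and 1090 tested genes had r above 0.99, so the order among them rests on small differences between replicates. Rsg1 went from 6.03 ± 0.37 to 44.4 ± 0.84 CPM (SD, n = 3; log2 2.88). Fyn, a kinase of the Src family, went from 151 ± 3.13 to 414 ± 3.53 CPM (log2 1.46). Zbtb24, a zinc finger protein gene, went from 34.0 ± 1.64 to 154 ± 3.52 CPM. Cxcl11 and Rhbdf2 were the 2 of the 5 that were also in the lists examined.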
